A study of Mus musculus with 6 samples.

Results

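The genes described here carry glucose into the cell and through glycolysis, lactate export, glycogen storage and the pentose phosphate pathway. A list of 38 gene symbols, matched to the Ensembl identifiers of the mouse count files, gave 38 genes of the 39179 counted. They were arranged in 6 branches: 3 glucose transporters, 11 genes of upper glycolysis (hexokinase to triose phosphate isomerase, with the PFKFB enzymes), 6 of lower glycolysis, 4 of lactate, 7 of glycogen and 7 of the pentose phosphate pathway. All 38 passed the filter on low counts, and the smallest count of a listed gene in any library was 141.

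RNA was sequenced from Th17 cells, the IL-17-producing class of helper T cell, in 3 libraries of cells given 30 ng/mL desIgf1 and 3 control libraries without it. desIgf1 is a shortened insulin-like growth factor 1 that IGF-binding proteins hold poorly, so that it reaches its receptor freely. In both groups the starting cells were naive CD4+ splenic T cells of C57BL/6 mice in which human CD2 reports Il17a, Thy1.1 reports Ifng and GFP reports Foxp3. Both were stimulated for 5 days with anti-CD3 (5 µg/mL) on irradiated feeder splenocytes from which CD4+ cells had been removed. The medium held TGF-β at 2.5 ng/mL, IL-6 at 20 ng/mL and blocking antibodies to IL-4 and IFN-γ at 10 µg/mL each. Cells positive for the Il17a reporter and negative for the others were sorted, so every value is from bulk RNA of a sorted culture, in which fewer cells of a type and less RNA per cell cannot be told apart. The protocol field lists desIgf1 for all 6 libraries, whereas titles and design text separate the groups; the titles were followed. No label read here gives the age of the mice or says that the libraries came from separate cultures or animals. The p-values therefore reflect the spread between the 6 libraries or, in fits that pair libraries by number, that of the differences within numbers. Either spread may be technical.

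Glycolysis splits glucose into pyruvate, and activated T cells, Th17 cells among them, turn much of that pyruvate into lactate even where oxygen is present. Insulin and insulin-like growth factors act through AKT and mTOR, which promote glucose uptake, and in several tissues glycogen synthesis. The transcription factor HIF-1, needed for full Th17 differentiation, induces many glycolytic genes. The pentose phosphate pathway branches off at glucose phosphate and supplies NADPH and ribose, while glycogen is the polymer in which glucose is stored and from which phosphorylase releases it again.

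Counts in genes ranged from 34567899 to 47929948 per library. Both libraries numbered 3 stood apart from the other 4 on the first principal component (43.5% of the variance). Same-numbered libraries of both groups deviated together from their group means, so edgeR's quasi-likelihood test was run without and with the replicate number as a block. The 7 Th17 markers had a summed CPM (gene counts scaled to a common library size) of 1695 to 1954 with desIgf1 and 1204 to 1483 in controls. Il17f was the largest part in every library. Il22 was nearly absent from most, at 0.2, 0.166 and 4.63 CPM with desIgf1 and 0.0219, 0.0235 and 0.315 in controls. The CD4 T cell markers summed to 5753 to 6488 with desIgf1 and 5738 to 5811 CPM in controls, whereas the macrophage markers summed to 12.7 to 20.3 and 5.70 to 15.7, with C1qb at 0 throughout and 7 of the 10 under 1 CPM in every library. Of the macrophage markers above that level, Lyz2 (4.30 to 7.64 CPM with desIgf1, 1.4 to 6.18 in controls) and Mrc1 (2.40 to 4.80 and 0.802 to 2.67) were higher with desIgf1 in each number, and Cd68 in numbers 2 and 3. The 8 dendritic cell markers summed to 3.55 to 10.4 CPM with desIgf1 and 1.97 to 4.90 in controls, with Xcr1, Siglech and Cd209a at 0 throughout. The 8 B cell markers summed to 57.0 to 100 and 69.8 to 178 CPM, nearly all of it Ighm; whether other cells had a part in any result below was not tested.

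With the replicate number as a block, 3 of the 38 genes rose with desIgf1: the glucose transporter gene Slc2a3, the aldolase gene Aldoc and the glycogen phosphorylase gene Pygl. That is 7.89% of the list, where 0.181% of all 13846 tested genes rose. Of the 38, 0 fell, where 0.137% of all genes fell. The list was chosen with earlier results of these data known, so this contrast is no independent support. For each of the 3 genes a more abundant carrier or isoenzyme of the same step (per kilobase of exon, in controls) did not pass. The block was an alternative, run because same-numbered libraries of these data deviated together. In the main fit, with group as the only term and no block, 0 of the 38 passed, as 0% of all genes did. There, 5 of the 38 were higher at an unadjusted edgeR p under 0.05 (4.75% of all genes) and 0 lower (3.42% of all genes). limma voom without the block also called 0 of the 38, and DESeq2 called 1, Pygl, among 202 of the 13558 genes it gave an adjusted p (1.49%).

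The branches differed in how far they shifted. In the blocked fit the median log2 fold change was 0.76 for glucose transport, 0.40 for glycogen and 0.26 for lower glycolysis. It was 0.22 for lactate, 0.20 for upper glycolysis and 0.01 for the pentose phosphate pathway, beside 0.00 for all tested genes. The glucose transport median is the value of Slc2a6 alone, which did not pass, and the 3 genes of that branch ran from 0.09 to 1.38. Of the 7 glycogen genes 6 had their desIgf1 library above the control in all 3 replicate numbers, and of the 7 pentose phosphate genes 0 were. Over the whole list the count was 18 of 38 (47.4%) against 20.9% of all genes, and 0 of 38 were lower in each number, against 17.2% of all genes. Only 4 of the 38 (10.5%) had all desIgf1 libraries above all controls, near the 7.31% of all genes, and 0 had them all below (6.18% of all genes). These medians and counts describe a list chosen with earlier results of these data known. The difference between branches was not tested.

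**Figure D1:**
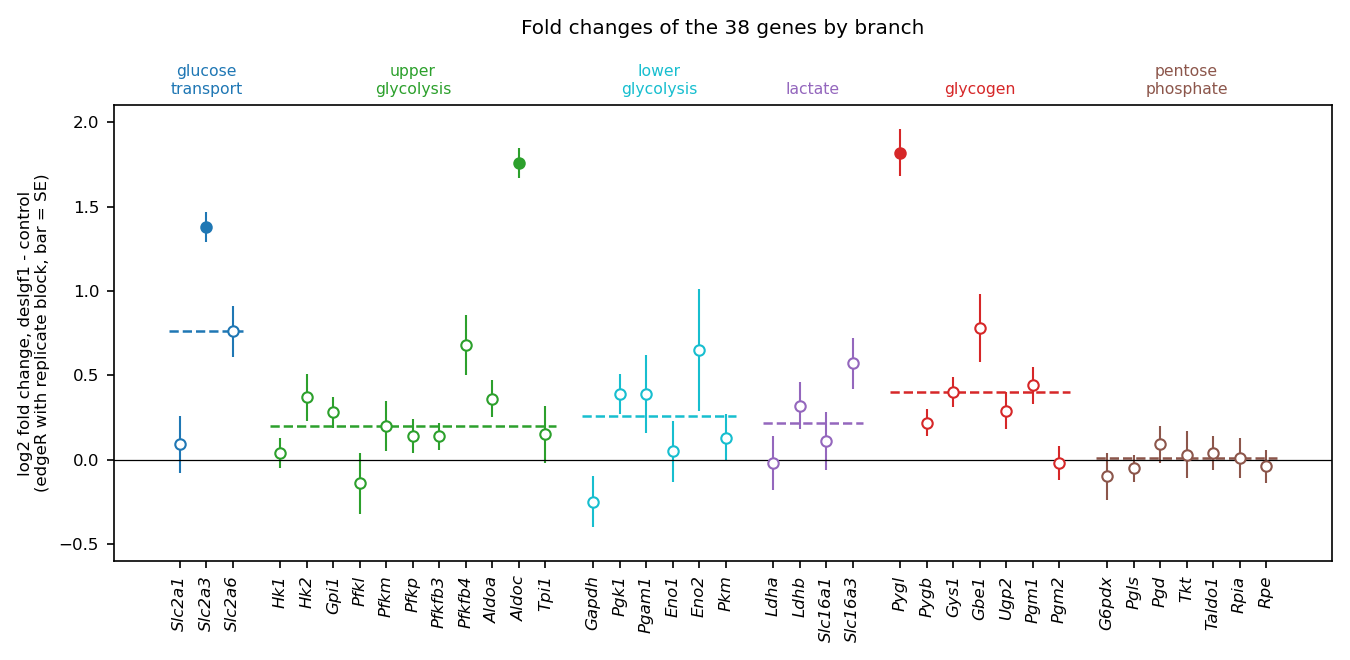
Log2 fold change (desIgf1 minus control, edgeR with the replicate number as a block) of each of the 38 genes, with bars for the standard error and dashed lines for branch medians. Filled points, Slc2a3, Aldoc and Pygl at 1.38, 1.76 and 1.82, passed an adjusted p of 0.05; the 7 pentose phosphate genes lie between -0.10 and 0.09.

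Glucose enters T cells through facilitated carriers. Slc2a3 encodes GLUT3, a high-affinity carrier best known from neurons and also used by activated lymphocytes (chromosome 6, 122727809 to 122801640, GRCm38). Its level was 501, 896 and 186 CPM in desIgf1 libraries numbered 1 to 3, against 200, 321 and 73.2 CPM in the controls. The groups overlapped, because the number 3 libraries were the lowest of each group, yet each desIgf1 library was above the control of its own number by a log2 difference of 1.33, 1.48 and 1.34. The log2 fold change was 1.38 ± 0.09 (SE) with the block (2.61-fold, edgeR adjusted p = 0.0136) and 1.41 ± 0.67 without it (adjusted p = 0.625). The blocked test favours genes whose differences are alike across numbers, so that likeness is no separate support.

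Slc2a1, the gene of GLUT1, the main carrier of proliferating cells, showed no such shift. Levels of 239, 214 and 173 CPM with desIgf1 stood against 231, 270 and 117 in controls, with differences of 0.05, -0.33 and 0.56 in numbers 1 to 3. Its blocked log2 fold change was 0.09 ± 0.17 (adjusted p = 0.836). Slc2a6, the gene of GLUT6, a carrier found on intracellular membranes, was at 54.6, 41.6 and 77.8 CPM with desIgf1, against 25.2, 24.3 and 59.8 in controls. It was higher in each number, by 1.12, 0.77 and 0.38, and did not pass (blocked log2 fold change 0.76 ± 0.15, adjusted p = 0.144). Unlike Slc2a3 and Slc2a1, it was highest in the number 3 library of each group.

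Upper glycolysis traps glucose and splits it into triose phosphates. Hk1, the gene of the housekeeping hexokinase on mitochondria, was at 487, 567 and 452 CPM with desIgf1 and 491, 590 and 397 in controls (blocked log2 fold change 0.04 ± 0.09, adjusted p = 0.877). Hk2, the gene of the inducible hexokinase, was at 282, 253 and 213 CPM with desIgf1 and 227, 243 and 126 in controls. It was higher in each number, mostly in number 3 (0.31, 0.06 and 0.75), and did not pass (0.37 ± 0.14, adjusted p = 0.328). For both hexokinases the groups overlapped.

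The phosphofructokinase genes, whose product catalyses the committed step, did not pass in the blocked fit, at -0.14 ± 0.18 for Pfkl, 0.20 ± 0.15 for Pfkm and 0.14 ± 0.10 for Pfkp. Pfkl was lower with desIgf1 in numbers 1 and 2 (-0.30 and -0.50) and higher in number 3 (0.38). The bifunctional PFKFB enzymes make or remove a fructose bisphosphate that activates phosphofructokinase, a different compound from that cleaved by aldolase. Pfkfb4 was at 17.2, 24.1 and 15.4 CPM with desIgf1, against 10.7, 11.7 and 12.6 in controls, so the groups did not overlap. Its log2 fold change was 0.70 ± 0.20 without the block (adjusted p = 0.452) and 0.68 ± 0.18 with it (adjusted p = 0.191), and neither passed. Pfkfb3, whose product acts mainly as the kinase, was at 159, 172 and 131 CPM with desIgf1 and 143, 163 and 116 in controls (blocked 0.14 ± 0.08, adjusted p = 0.492).

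Aldolase cleaves fructose bisphosphate, and its C isoenzyme, typical of brain, showed the smallest blocked p of the 38 genes. Aldoc (chromosome 11, 78322968 to 78327781) reached 134, 301 and 95.0 CPM with desIgf1, against 39.6, 83.7 and 29.9 in controls. The groups did not overlap, and the differences in numbers 1 to 3 were 1.76, 1.85 and 1.67. With the block its log2 fold change was 1.76 ± 0.09 (3.38-fold, edgeR adjusted p = 0.0103), and without it 1.79 ± 0.53 (adjusted p = 0.497). Aldoa, the gene of the muscle-type aldolase that most cells use, was at 1571, 1859 and 1438 CPM with desIgf1, against 1278, 1627 and 962 in controls. It was higher in each number, by 0.30, 0.19 and 0.58, without passing (blocked 0.36 ± 0.11, adjusted p = 0.249). Of the other genes of this branch, Gpi1 (glucose phosphate isomerase) had a blocked log2 fold change of 0.28 ± 0.09 and Tpi1 (triose phosphate isomerase) of 0.15 ± 0.17, with adjusted p-values of 0.267 and 0.703.

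**Figure D2:**
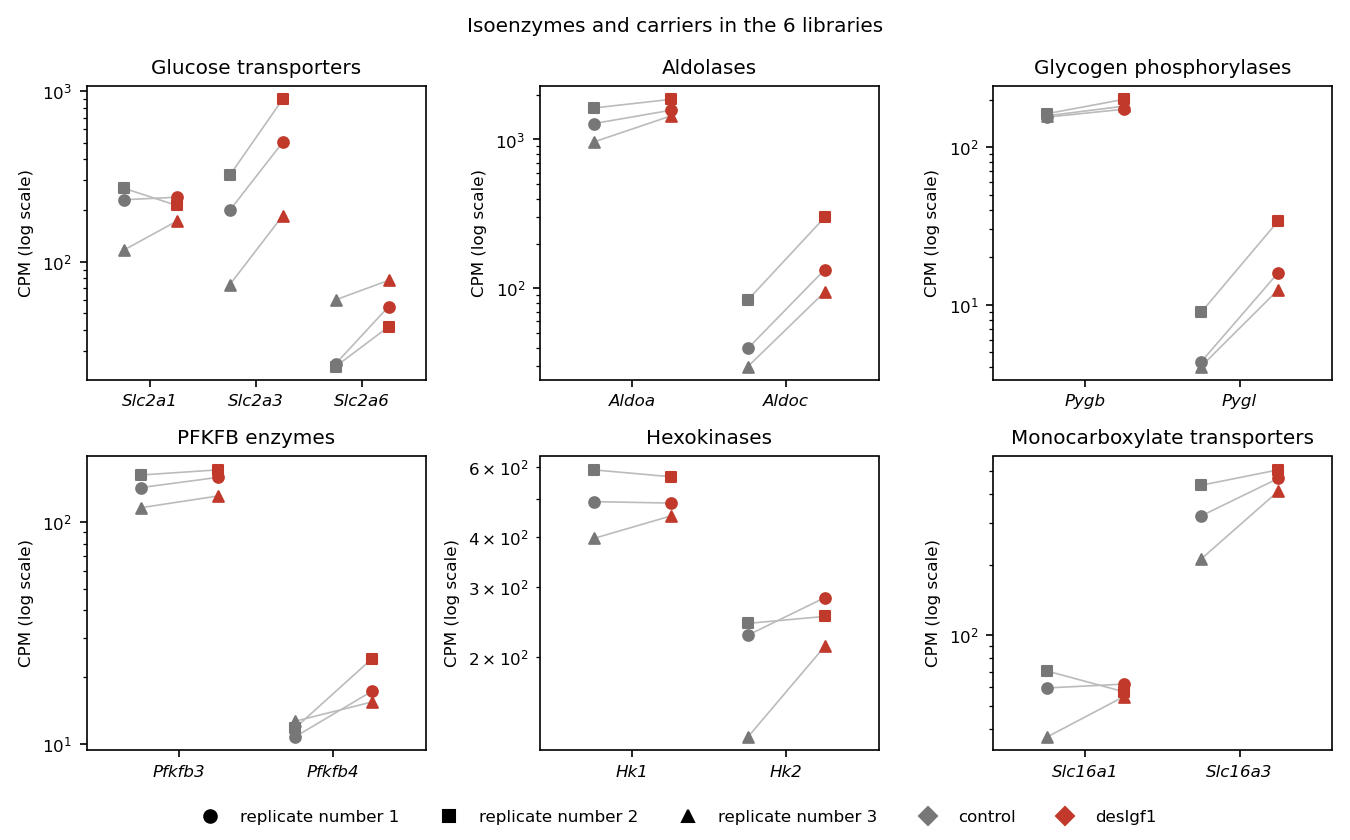
CPM on a log scale in each control (grey) and desIgf1 (red) library, with the marker shape giving the replicate number and lines joining libraries of the same number. The lines of Slc2a3, Aldoc and Pygl rise in parallel from different starting levels, whereas those of Slc2a1, Hk1 and Slc16a1 go both ways.

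In lower glycolysis, which recovers the ATP, no gene passed and the replicate numbers disagreed. The branch median difference was 0.18 in number 1, -0.17 in number 2 and 0.52 in number 3. In the fit without the block, the branch median went from 0.20 to -0.03 when control library 3 was left out. Pkm, the gene of the pyruvate kinase of most cells, was at 2176, 2425 and 2176 CPM with desIgf1, against 2117, 2658 and 1563 in controls (blocked 0.13 ± 0.14, adjusted p = 0.7). Pgk1, Pgam1 and Eno1 encode the next enzymes after the glyceraldehyde phosphate dehydrogenase, and had blocked log2 fold changes of 0.39 ± 0.12, 0.39 ± 0.23 and 0.05 ± 0.18. Eno2, the neuronal enolase, was at 13.8, 19.3 and 9.36 CPM with desIgf1 and 8.02, 6.61 and 12.3 in controls. It was higher in numbers 1 and 2 (0.78 and 1.53) and lower in number 3 (-0.39), with a blocked adjusted p of 0.469.

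Levels in this branch are bounded by how reads were counted. Alignments marked as not unique are outside the gene counts, and 5 of the 6 genes share over 20% of the 50-base words of their principal transcript with other annotated genes. For Gapdh the share was 82.5%, found in full in a processed pseudogene, for Eno1 72.2%, mostly with the retrogene Eno1b, and for Pgk1 68.0%. Gapdh, usually among the most abundant transcripts of a cell, was at 31.4, 14.4 and 14.5 CPM with desIgf1 and 31.2, 21.2 and 16.6 in controls (blocked -0.25 ± 0.15, adjusted p = 0.483). Its level and those of Eno1, Pgk1, Pgam1 and Pkm (34.4%) are therefore uncertain, as are ratios drawn from them. In other branches the measure was 25.3% for Gpi1, 27% for Ldhb, 17.1% for Ldha and 13.9% for Aldoa. The shares of Aldoc and Ldhb given below are uncertain for the same reason. The same measure was 0% for Slc2a3 and Aldoc, 1.30% for Pygl, and 0% for 15 of the 38 genes.

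Lactate dehydrogenase turns pyruvate into lactate, and monocarboxylate transporters export it. Ldha, the dominant dehydrogenase gene, was at 1866, 1753 and 1958 CPM with desIgf1 and 1892, 2335 and 1517 in controls, within the control range in all 3 cases (blocked -0.02 ± 0.16, adjusted p = 0.962). Ldhb, whose subunit favours the reverse reaction, was at 14.8, 13.4 and 19.3 CPM with desIgf1 and 10.5, 10.1 and 18.4 in controls (0.32 ± 0.14, adjusted p = 0.382). Slc16a3, the gene of the lactate exporter MCT4, was at 465, 506 and 410 CPM with desIgf1 and 322, 435 and 211 in controls. It was higher in each number, by 0.53, 0.22 and 0.96, and did not pass (0.57 ± 0.15, adjusted p = 0.196). Slc16a1, the gene of MCT1, was at 62.0, 57.5 and 54.9 CPM with desIgf1 and 59.7, 70.5 and 36.9 in controls (0.11 ± 0.17, adjusted p = 0.796).

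Among glycogen genes Pygl alone passed, and genes of both breakdown and synthesis were higher with desIgf1 in every replicate number. Pygl, the liver-type glycogen phosphorylase (chromosome 12, 70190811 to 70231488), reached 15.9, 33.9 and 12.4 CPM with desIgf1, against 4.32, 8.91 and 4.04 in controls. All desIgf1 libraries lay above all controls, and the differences in numbers 1 to 3 were 1.87, 1.92 and 1.61. It rose 3.52-fold with the block (log2 1.82 ± 0.14, edgeR adjusted p = 0.0245), and its log2 fold change was 1.85 ± 0.46 without it (adjusted p = 0.397). Pygb, the brain-type phosphorylase, was at 174, 201 and 182 CPM with desIgf1 and 155, 163 and 158 in controls. Those groups did not overlap either, although the shift was small (blocked 0.22 ± 0.08, adjusted p = 0.324).

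On the synthetic side, Gys1 (muscle-type glycogen synthase) was at 108, 115 and 78.7 CPM with desIgf1 and 79.5, 94.7 and 56.6 in controls, with differences of 0.45, 0.29 and 0.48 (blocked 0.40 ± 0.09, adjusted p = 0.156). Gbe1, the branching enzyme, was at 27.8, 58.5 and 20.3 CPM with desIgf1 and 18.1, 23.3 and 15.8 in controls (0.78 ± 0.20, adjusted p = 0.185). Its difference was 1.33 in number 2 and 0.62 and 0.36 in numbers 1 and 3. Ugp2, which makes UDP-glucose, had a blocked log2 fold change of 0.29 ± 0.11, and Pgm1, which interconverts the glucose phosphates, of 0.44 ± 0.11, with adjusted p-values of 0.334 and 0.174. Pgm2, on chromosome 5, was at 31.7, 28.3 and 29.5 CPM with desIgf1 and 32.1, 30.2 and 28.3 in controls (-0.02 ± 0.10, adjusted p = 0.954). The symbols Pgm1 and Pgm2 were exchanged between these genes in older mouse annotations; here Pgm1 is the gene on chromosome 4 (99929414 to 99987294).

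The pentose phosphate genes stayed close to 0. Blocked log2 fold changes ran from -0.10 to 0.09 with standard errors of at most 0.14, and 0 of the 7 reached an unadjusted p under 0.05. G6pdx, the X-linked gene of the rate-limiting dehydrogenase, was at 93.3, 86.0 and 91.0 CPM with desIgf1, against 101, 116 and 76.2 in controls (-0.10 ± 0.14, adjusted p = 0.784). Its desIgf1 libraries lay inside the control range. Pgd, the next dehydrogenase, had a blocked value of 0.09 ± 0.11, Tkt (transketolase) of 0.03 ± 0.14 and Taldo1 (transaldolase) of 0.04 ± 0.10. Pgls, Rpia and Rpe, for the lactonase, the ribose phosphate isomerase and the epimerase, were at -0.05 ± 0.08, 0.01 ± 0.12 and -0.04 ± 0.10. Numbers 2 and 3 went opposite ways here as well, with median differences of -0.16 and 0.22, and number 1 was at 0.07.

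The 3 genes called with the block each took a larger mean share of their own step. Levels were compared per kilobase of exon, as a share of the summed CPM per kilobase of the genes of that step among the 38; other genes of a step are not in the sum. Slc2a3 made up 44.8, 62.6 and 25.8% of the 3 listed glucose transporters with desIgf1 and 27.2, 34.4 and 16.3% in controls 1 to 3, and the share of Slc2a1 was 41.6% ± 9.69 (SD, n = 3) against 59.5% ± 5.66. Aldoc made up 7.07, 12.6 and 5.56% of Aldoc plus Aldoa with desIgf1 and 2.69, 4.39 and 2.70% in controls. For Pygl the share of Pygl plus Pygb was 6.00, 10.5 and 4.56% with desIgf1 and 1.90, 3.67 and 1.75% in controls. So Aldoa and Pygb still made up 91.6% ± 3.72 and 93.0% ± 3.11 of these sums with desIgf1. Pygm, the muscle-type phosphorylase, lies outside the sum at 0.778 CPM per kilobase with desIgf1 and 0.676 in controls, where Pygl had 3.01 and 0.835. Scaled by the longest transcript instead, the desIgf1 share of Aldoc was 5.44% in place of 8.42%, and that of Pygl 11.8% in place of 7.03%.

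Slc16a3 held 86.2, 88.0 and 86.1% of Slc16a3 plus Slc16a1 with desIgf1 and 81.8, 83.7 and 82.6% in controls, without overlap. Slc16a6, another carrier of that family, is not in this sum and was at 8.32 CPM per kilobase with desIgf1 and 8.07 in controls, beside 13.1 and 12.6 for Slc16a1. Hk2 took 41.5% ± 3.35 of Hk2 plus Hk1 with desIgf1 and 36.0% ± 4.37 in controls, with overlap. Ldhb stayed a small part of Ldhb plus Ldha, at 1.76% ± 0.244 and 1.52% ± 0.850. Eno2 made up 3.24% ± 0.959 and 2.45% ± 1.67 of Eno2 plus Eno1. That share is too high for the whole enolase step, since Eno3, the muscle enolase, was at 8.02 CPM per kilobase with desIgf1 and 7.85 in controls, above the 3 and 1.91 of Eno2, and since reads of Eno1 shared with its copies were not counted.

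**Figure D3:**
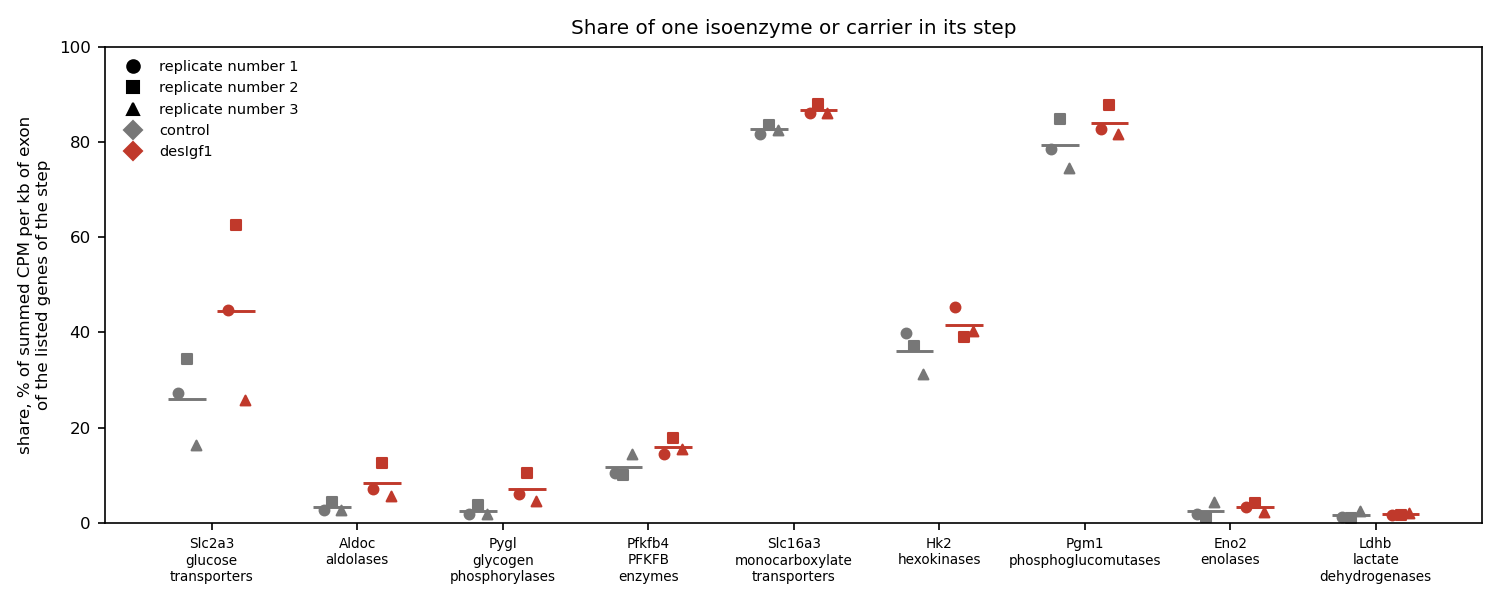
Share of 1 isoenzyme or carrier in the summed CPM per kilobase of exon of the listed genes of its step, in percent, for each control (grey) and desIgf1 (red) library, with lines at group means and marker shapes for replicate numbers. Slc2a3 covers the widest range, from 16.3 to 62.6%, while Aldoc and Pygl stay at or below 12.6%.

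The upstream sequences of Aldoc and Pygl are shown beside those of Aldoa and Pygb, since each pair serves the same step and differed in size of change. The RefSeq promoter table (GRCm38.p6), with windows around 1 or more transcript starts per gene, matched 37 of the 38 genes; Slc2a3 was not among them. Bases are printed 5′ to 3′ on the gene's strand, up to 250 before a RefSeq start and without bases that GENCODE M21 places in an exon of that strand. Capitals mark ACGTG or GCGTG on either strand, the core that HIF-1 and related factors can bind. For Aldoa and Pygl the RefSeq start used lies inside the longer GENCODE gene span, so these stretches are not upstream of the whole gene. Aldoa has 3 starts in the table, of which the second is shown, and Aldoc has more than 1, of which the first is shown.
Aldoc, chr11:78322823-78322967, plus strand: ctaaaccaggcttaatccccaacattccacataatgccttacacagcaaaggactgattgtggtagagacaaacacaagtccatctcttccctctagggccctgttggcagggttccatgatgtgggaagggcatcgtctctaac
Aldoc, site inside the annotated first exon, chr11:78323011-78323040, plus strand: ccacctctgaggGCGTGgccttaccctaga
Aldoa, chr7:126799255-126799504, minus strand: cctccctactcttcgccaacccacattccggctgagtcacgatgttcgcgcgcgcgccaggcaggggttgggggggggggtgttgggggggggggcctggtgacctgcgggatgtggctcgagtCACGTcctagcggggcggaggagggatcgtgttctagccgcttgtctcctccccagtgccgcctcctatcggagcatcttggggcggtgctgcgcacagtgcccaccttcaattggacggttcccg
Pygl, chr12:70227684-70227933, minus strand: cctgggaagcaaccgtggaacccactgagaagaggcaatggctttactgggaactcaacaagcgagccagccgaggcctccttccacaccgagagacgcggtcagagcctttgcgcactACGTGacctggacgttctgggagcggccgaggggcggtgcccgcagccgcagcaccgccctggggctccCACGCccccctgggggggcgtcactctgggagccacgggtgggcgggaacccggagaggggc
Pygb, chr2:150786546-150786734, plus strand: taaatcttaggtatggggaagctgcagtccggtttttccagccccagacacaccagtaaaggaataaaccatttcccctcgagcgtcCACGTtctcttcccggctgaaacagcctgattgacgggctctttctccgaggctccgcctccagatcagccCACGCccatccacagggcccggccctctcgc

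Pygl and Pygb both held ACGTG and GCGTG in the stretch shown. The aldolase pair differed, with 1 match (ACGTG) in the stretch of Aldoa, 0 upstream of the exon of Aldoc and 1 (GCGTG) inside that exon. These stretches are unlike, at 250 bases for Aldoa and 145 for Aldoc, and both genes hold ACGTG or GCGTG in the full search given next. Over the full 250 bases before any listed start, ACGTG or GCGTG was present in 31 of the 37 genes (83.8%), and in 41.5% of the 27025 genes of the table. These sets are unlike, since the table also holds genes not tested here and a gene with more starts had more bases searched. ACGTG alone was in 16 of the 37 (43.2%) and in 18.5% of all genes. Its 16 holders had a median blocked log2 fold change of 0.26 and the others 0.09, while for GCGTG the order was the reverse, 0.10 with it and 0.37 without. CACGTG, the E-box that MYC and the carbohydrate response factors can bind and that contains ACGTG, was in 4 of the 37, namely Pfkm, Pfkfb3, Ldha and Slc16a1, and in 6.9% of all genes. A match describes letters and shows no binding, and many promoters rich in CG hold such letters.

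Much of the variation among these genes lay between libraries of the same group, partly along the replicate number and partly in control library 3. Control library 3 was the lowest of the 6 libraries for 25 of the 38 genes (65.8%), against 22.4% of all tested genes. In 20 of the 38, both number 3 libraries were below numbers 1 and 2 of their group, against 19.7% of all genes. Summed over the 38 genes, the level was 13448, 14925 and 12488 CPM with desIgf1 and 12095, 15034 and 9157 CPM in controls 1 to 3. Control 2 was thus above all 3 desIgf1 libraries, and the difference between group means was smaller than the spread of the controls. In the fit without the block, leaving out control library 3 gave a median log2 fold change over the 38 of 0.04 in place of 0.18. There the glycogen branch had 0.22 in place of 0.39 and upper glycolysis 0.09 in place of 0.22. Lactate had 0.06 in place of 0.17 and glucose transport 1.02 in place of 0.67. With the block and both number 3 libraries left out, upper glycolysis had 0.19, lower glycolysis 0.04, lactate 0.13 and glucose transport 0.95.

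In the blocked fit the 3 genes that rose passed with each replicate number left out. Leaving out numbers 1, 2 or 3, the blocked log2 fold change was 1.76, 1.71 and 1.80 for Aldoc, 1.41, 1.34 and 1.41 for Slc2a3, and 1.78, 1.76 and 1.91 for Pygl, with adjusted p-values of at most 0.0077. Those fits reuse the same libraries and keep fewer degrees of freedom. Without the block, where none of the 3 passed in edgeR, single libraries moved the values. Leaving out desIgf1 library 2 gave 0.78 for Slc2a3, 1.15 for Aldoc and 1.29 for Pygl, and leaving out control library 2 gave 1.95, 2.34 and 2.31. Without number 2, 11 of the 38 rose, adding Slc2a6, Hk2, Aldoa, Pgk1, Pgam1, Slc16a3, Gys1 and Pgm1, in a fit that called 620 of all genes. Without number 3, 7 rose, adding Slc2a6, Pfkfb4, Eno2 and Gbe1, in a fit that called 1069. Aldoc and Pygl ordered the 6 libraries alike, desIgf1 2, 1 and 3 and then control 2, 1 and 3, an order found in 91 of the 13846 tested genes.

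**Figure D4:**
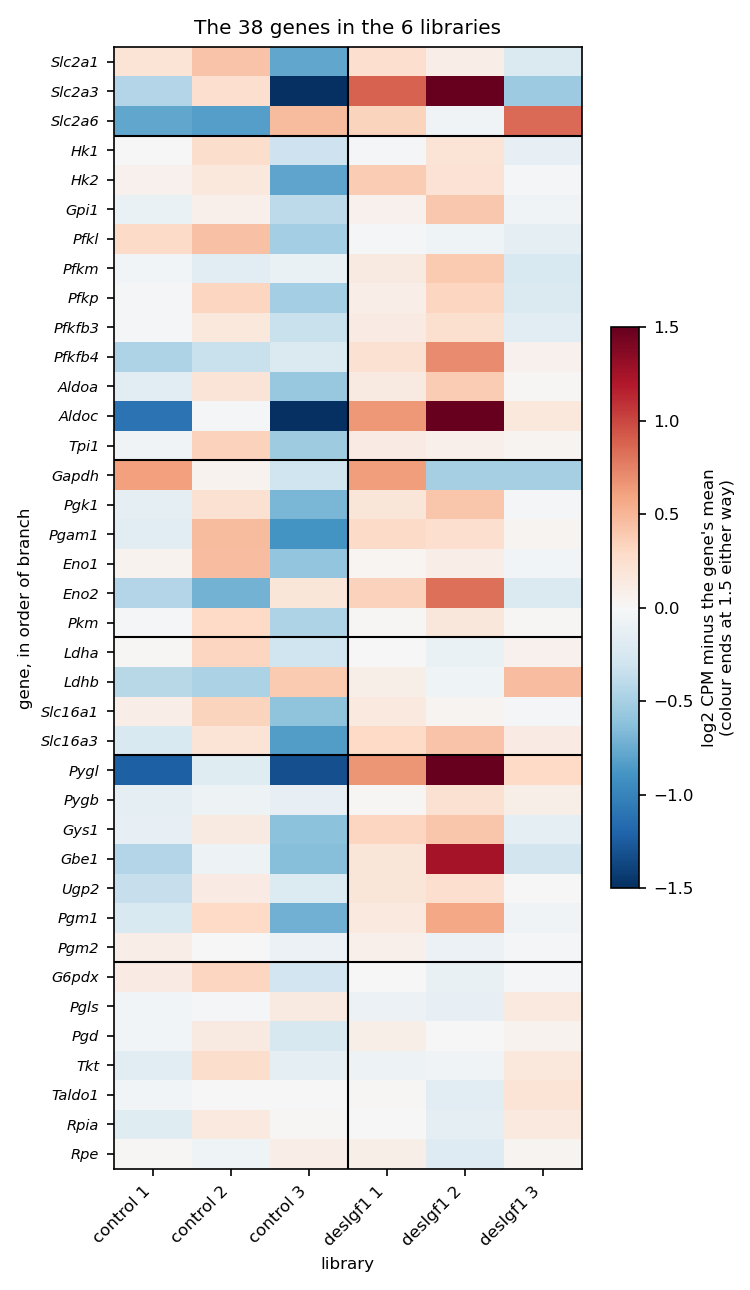
Heat map of log2 CPM minus each gene's mean over the 6 libraries, with genes in branch order and horizontal lines between branches (red above, blue below the mean, colours ending at 1.5). Control 3 is blue for most genes down to glycogen and pale for the pentose phosphate genes, and Slc2a3, Aldoc and Pygl have their highest value in desIgf1 library 2.

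Of 122 other genes of glucose and glycogen handling and their regulators, 91 were tested and 0 passed in edgeR without or with the block. DESeq2 without the block and limma voom with or without it also called 0, and DESeq2 with the block called 7. The median blocked log2 fold change was 0.08. The smallest unblocked p-values were those of Emb (embigin, a partner of monocarboxylate transporters), Phkb (a subunit of phosphorylase kinase) and Pdp1 (a pyruvate dehydrogenase phosphatase). Emb was at 849, 1024 and 771 CPM with desIgf1 and 686, 614 and 611 in controls (blocked 0.46 ± 0.12, adjusted p = 0.184). Phkb was at 46.6, 51.1 and 46.3 CPM with desIgf1 and 35.8, 35.6 and 41.0 in controls (0.36 ± 0.11, adjusted p = 0.240), and Pdp1 at 18, 21.8 and 19.8 against 14.0, 15.8 and 13.7 (0.45 ± 0.12, adjusted p = 0.192). The groups of all 3 were apart without overlap, as for 11 higher and 2 lower of the 91, where 7.31% of all tested genes were higher and 6.18% lower in this way.

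Further genes of this wider list were picked after their values were seen. Epm2a (laforin, a glycogen phosphatase) was at 2.88, 7.22 and 1.24 CPM with desIgf1 and 0.921, 1.71 and 0.229 in controls, with differences of 1.60, 2.05 and 2.22 (blocked 1.99 ± 0.26, adjusted p = 0.0577). It passed with the block where no filter on low counts was set, in DESeq2 with the block, and in the blocked edgeR fit without each replicate number. Pdk1, whose product inhibits pyruvate dehydrogenase, had a blocked log2 fold change of 0.44 ± 0.08 (edgeR adjusted p = 0.114). Among regulators, Hif1a was at 1617 ± 435 CPM with desIgf1 and 1459 ± 587 in controls (SD, n = 3 each, blocked edgeR adjusted p = 0.481). Myc was at 147 ± 27.2 and 187 ± 46.5 CPM (blocked edgeR adjusted p = 0.549, n = 3 each).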

How the data were processed

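The deposited files hold whole-number counts per Ensembl gene, not normalized. Per the submitters' processing notes, the authors used the GRCm38 (mm10) build and, in no stated order, HTSeq 0.7.2, STAR 2.5.3, Trim Galore 0.4.5, R 3.4.3, DESeq2 1.18.1 and SAMtools 0.1.18. Annotation release and strand setting: not given in the sources used here. Counts of overlapping and antisense genes are therefore uncertain. The 5 summary lines of each file stayed out; alignments marked as not unique were 46.4 to 48.7% of all entries. Symbols, coordinates and exon lengths came from GENCODE M21, which matched 37607 identifiers.

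From these counts, filterByExpr (minimum count 10) kept 13846 genes. The robust quasi-likelihood test of edgeR 4.0.16 (R 4.3.3), scaled by TMM and with group as the only term, gave p-values adjusted by Benjamini-Hochberg over those genes (threshold 0.05). Standard errors are the log2 fold change divided by the square root of F. CPM use TMM factors, and differences within a number use log2 CPM with a prior count of 2. The tests were checked on simulated counts, in which same-numbered libraries shared an effect by construction. That check therefore cannot show whether pairing by number is right for these data.

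Deviations of same-numbered libraries correlated at 0.59, 0.32 and 0.55 across genes. Libraries sharing a number in their titles were therefore treated as paired in the blocked fit, an alternative to the main fit with group alone. No label states the pairing. Both fits are given where the block changed a call. DESeq2 1.42.0 and limma 3.58.1 (voom), other factors, no filter, left-out libraries and a correction for GC content and length were alternatives. Libraries of 1 group were not copies (chi-square per degree of freedom at least 40.3).

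Values in every library are given for genes past the threshold in either fit, genes whose groups did not overlap, the first gene of each branch and their isoenzymes; values of other genes were added after they were seen. Of the wider list, genes past the threshold or else the 3 smallest p-values are named. The genes and lists were chosen with earlier results of these data known.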

Additional observations from a re-analysis of the deposited data

How the results depend on the processing

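The call of Slc2a3, Aldoc and Pygl rests on the replicate block. With it, edgeR called 44 genes and 3 of the 38; with RLE factors 38 and 3; with the correction for GC content and gene length 10 and 3; limma voom called 63 and 3; with no filter on low counts 281 and 4 (Slc2a6 added), and 1 of the wider list; DESeq2 606 and 7, and 7 of the wider list. The 3 genes were among those called in each of these fits. Without the block, no filter gave 16 genes and 0 of the 38, DESeq2 gave 202 and 1, and leaving out any single library gave 0. With the block and 1 number left out, 72, 620 and 1069 genes (numbers 1, 2 and 3), 3 to 11 of the 38 and 1, 5 and 8 of the wider list were called. The cause of these differences was not tested. Leaving out libraries, the branch median ran from 0.38 to 1.02 for glucose transport and from 0.22 to 0.57 for glycogen, and kept its sign. It ran from 0.09 to 0.35 for upper glycolysis and from 0.06 to 0.30 for lactate. For lower glycolysis it ran from -0.03 to 0.39 and so changed sign. Scaled by the longest transcript, the share was 7.53 points higher with desIgf1 in place of 4.59 for Pygl, and 3.38 in place of 5.16 for Aldoc. Directions near 0 turned. Eno1 went from -0.01 to 0.05 with the block (also with RLE factors, in DESeq2 with the block and in limma voom with and without it), 0.06 with the block and no filter and 0.12 with the GC and length correction, where Ldha was at 0.01. Leaving out 1 library at a time without the block, log2 fold changes ran from -0.26 to 0.26 for Slc2a1, -0.11 to 0.17 for Hk1, -0.07 to 0.33 for Pfkp, -0.09 to 0.35 for Tpi1, -0.68 to 0.08 for Gapdh, -0.24 to 0.26 for Eno1, -0.08 to 0.30 for Pkm, -0.19 to 0.12 for Ldha, -0.16 to 0.27 for Slc16a1, -0.06 to 0.03 for Pgm2, -0.27 to 0.02 for G6pdx, -0.16 to 0.02 for Pgls, -0.01 to 0.18 for Pgd, -0.09 to 0.17 for Tkt, -0.08 to 0.13 for Taldo1, -0.09 to 0.09 for Rpia and -0.10 to 0.04 for Rpe. With the block and without number 1, the reversed values were 0.09 for Eno1, -0.00 for Tkt and -0.08 for Rpia. With the block and without number 2, the reversed values were 0.04 for Pfkl, 0.26 for Eno1, 0.17 for Ldha, 0.02 for Pgm2, 0.07 for G6pdx and 0.00 for Rpe. With the block and without number 3, the reversed values were -0.14 for Slc2a1, -0.03 for Hk1, -0.05 for Tpi1, -0.04 for Pkm, -0.12 for Slc16a1, -0.01 for Pgd, -0.12 for Tkt, -0.05 for Taldo1 and -0.05 for Rpia. With 3 libraries a group, a gene that did not pass is not shown to be unchanged.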
